A study of Mus musculus with 24 samples.

Results

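The Hippo pathway and its TEAD transcription factors were followed as 10 genes: *Yap1*, *Wwtr1* (the gene of TAZ), *Lats1*, *Lats2*, *Tead1*, *Tead2*, *Tead3*, *Tead4*, *Ankrd1* and *Amotl2*. They were taken by name from the 55471 genes in the count tables, with no threshold on a value but with earlier results of these data known, and all 10 passed the filter on low counts that left 17522 genes to test. Their transcripts were measured by RNA-seq in 24 libraries of 3T3 MEFs, an immortalized line of mouse embryonic fibroblasts. The 8 groups of 3 libraries were wild-type MEFs, *Lkb1*-/- MEFs, which lack the kinase LKB1 (encoded by *Stk11*), and *Lkb1*-/-/*Crtc2*-/- MEFs of clones A1 and A2, which also lack the CREB coactivator CRTC2, each without treatment or after 6 hours with IL-1β, an inflammatory cytokine. Each *Lkb1*-/-/*Crtc2*-/- clone grew from 1 cell of the *Lkb1*-/- line after editing with Cas9 and guides to the first exon of *Crtc2*, so a difference of 1 clone cannot be told apart from a property of the founding cell. Wild-type and *Lkb1*-/- MEFs were described as lines before this study and 1 line of each was sequenced, so the effect of *Lkb1* loss cannot be told apart from other differences between the lines.

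In the Hippo pathway, the kinases LATS1 and LATS2 phosphorylate the coactivators YAP and TAZ, which are then held in the cytoplasm or degraded. Unphosphorylated YAP and TAZ enter the nucleus and, since they cannot bind DNA themselves, act through the TEAD factors, which recognize the sequence GGAATG. *Ankrd1*, *Ccn1*, *Ccn2* and *Amotl2* are widely used target genes of YAP and TAZ with TEAD, and the AMOTL2 protein in turn binds YAP and TAZ outside the nucleus. In fibroblasts the pathway responds to cell density, matrix stiffness and the actin cytoskeleton. The activity of YAP and TAZ is set mainly by phosphorylation and location of the proteins, neither of which was measured here. LKB1 activates the kinases of the AMPK family, among them the SIKs, which keep CRTC2 out of the nucleus.

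The promoters were read from RefSeq on GRCm38.p6, which held 8 of the 10 genes with 12 transcription starts (*Tead1* and *Tead4* had no entry), and the 250 bases before each start were searched on both strands for 2 motifs. The first was GGAATG, the TEAD motif, which reads CATTCC on the other strand. The second was TGACG, the half-site of the cAMP response element that CREB binds, which reads CGTCA on the other strand. GGAATG was found before at least 1 start of *Yap1*, *Wwtr1*, *Tead3*, *Ankrd1* and *Amotl2*, 5 of the 8 genes, and in 14.4% of the 27025 genes of the same table (12.6% of 32851 windows). TGACG was found before 1 of the 8 genes, *Lats2*, against 19.8% of all genes (17.8% of windows), and no window of the 8 genes held both motifs. Of the list of 19 other target genes described further on, the table held 12, and 4 of these had GGAATG. In the 2 other pathway lists described there, GGAATG was found for 3 of 12 kinase module genes and 7 of 13 upstream genes that the table held. A match of 6 or 5 letters describes the sequence and does not show that a factor binds there. The windows of *Ankrd1* and *Amotl2*, the target genes, and the one before the first start of *Tead3* are shown as 30 bases around each match, 5′ to 3′ on the strand of the gene with the motif in capitals, because these windows hold bases of exons that GENCODE annotates for the same genes. The second of 3 starts of *Tead3* had 2 more matches, from 123 and 114 bases before it, which are not shown.
Ankrd1, chr19:36120037-36120066, minus strand, match from 210 bases before the start: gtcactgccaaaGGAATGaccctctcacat
Ankrd1, chr19:36119950-36119979, minus strand, match from 123 bases before the start: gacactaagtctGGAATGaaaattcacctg
Amotl2, chr9:102717727-102717756, plus strand, match from 65 bases before the start: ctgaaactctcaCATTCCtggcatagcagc
Tead3, chr17:28350970-28350999, minus strand, match from 182 bases before the first of 3 starts: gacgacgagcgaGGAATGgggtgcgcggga
The promoters of the coactivators each held 1 match, at 141 bases before the start of *Yap1* and at 136 bases before the first of 2 starts of *Wwtr1*, and are shown whole, so that the letters around a match can be compared.
Yap1, chr9:8004597-8004846, minus strand: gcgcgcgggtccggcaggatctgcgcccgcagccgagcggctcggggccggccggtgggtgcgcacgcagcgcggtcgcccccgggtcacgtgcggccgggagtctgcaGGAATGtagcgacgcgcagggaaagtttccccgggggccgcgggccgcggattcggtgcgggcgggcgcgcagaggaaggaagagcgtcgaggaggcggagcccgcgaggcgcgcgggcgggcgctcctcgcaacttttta
Wwtr1, chr3:57575911-57576160, minus strand: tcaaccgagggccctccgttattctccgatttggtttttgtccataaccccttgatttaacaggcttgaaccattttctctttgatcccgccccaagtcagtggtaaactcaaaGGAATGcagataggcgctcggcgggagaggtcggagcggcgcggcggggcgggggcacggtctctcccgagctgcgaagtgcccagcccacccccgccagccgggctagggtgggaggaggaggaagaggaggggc
The first of 2 starts of *Lats2* had 2 matches to TGACG, both within 28 bases of the start, and none to GGAATG.
Lats2, chr14:57746124-57746373, minus strand: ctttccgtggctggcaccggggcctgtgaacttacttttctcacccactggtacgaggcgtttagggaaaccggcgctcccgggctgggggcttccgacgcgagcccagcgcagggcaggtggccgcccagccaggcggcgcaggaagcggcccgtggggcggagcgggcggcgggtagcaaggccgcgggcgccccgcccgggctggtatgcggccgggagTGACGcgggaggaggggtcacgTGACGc

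The targeted genes were checked first. Without treatment, the level of *Stk11* was 86.0 in wild-type cells and 17.3 in *Lkb1*-/- MEFs, in CPM (counts scaled to the size of the library, with TMM factors) (log2 fold change −2.31, SE 0.070, edgeR FDR = 1.06e-16). *Crtc2* transcripts remained in both clones, with a log2 fold change against untreated *Lkb1*-/- MEFs of −0.92 in clone A1 (edgeR FDR = 2.21e-09) and −0.70 in clone A2 (edgeR FDR = 9.91e-08), and a count over the whole gene does not show the edited exon. Libraries held between 38842901 and 48594394 counts on genes. The libraries numbered 1 had more counts on mitochondrial genes, 3.03% to 4.57% of counts, than those numbered 2 and 3, with 1.27% to 2.02%. *Yap1*, *Wwtr1* and *Tead2* were lowest in replicate 1 in all 8 groups, so the spread within a group was partly shared between groups, and values from a fit with replicate numbers as a block stand beside the results whose call they change. Of 8 fibroblast markers, 7 were expressed in all groups and summed with the eighth to 5351 to 9915 CPM, while *Thy1* was under 1 CPM in every group and at 0 in wild-type MEFs. Within this sum the lines differed in both directions, with 3 of the 7 markers tested called higher and 3 lower in untreated *Lkb1*-/- MEFs than in wild-type MEFs, among them *Pdgfra* at 342 ± 63.7 against 4.58 ± 0.997 CPM and *Col1a2* at 63.0 ± 15.7 against 780.1 ± 165 CPM. All 4 epithelial markers were under 1 CPM in every group, and 3 endothelial markers summed to 0.370 to 0.595 CPM in wild-type libraries and 2.06 to 3.80 CPM in all others. The endothelial sum was mostly *Kdr*, at 0.39 CPM in untreated wild-type and 2.60 CPM in untreated *Lkb1*-/- MEFs, with *Pecam1* and *Cdh5* under 1 CPM in every group. The 3 haematopoietic markers summed to 2.39 to 6.82 CPM, mostly *Cd68*, with *Ptprc* and *Adgre1* under 1 CPM in every group. Untreated, *Cd68* was at 3.28 CPM in wild-type MEFs, 3.38 in *Lkb1*-/- MEFs, 5.01 in clone A1 and 5.37 in clone A2. It was called higher in each clone than in *Lkb1*-/- MEFs. In bulk RNA, fewer cells of a type and less RNA per cell cannot be told apart.

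**Figure D1:**
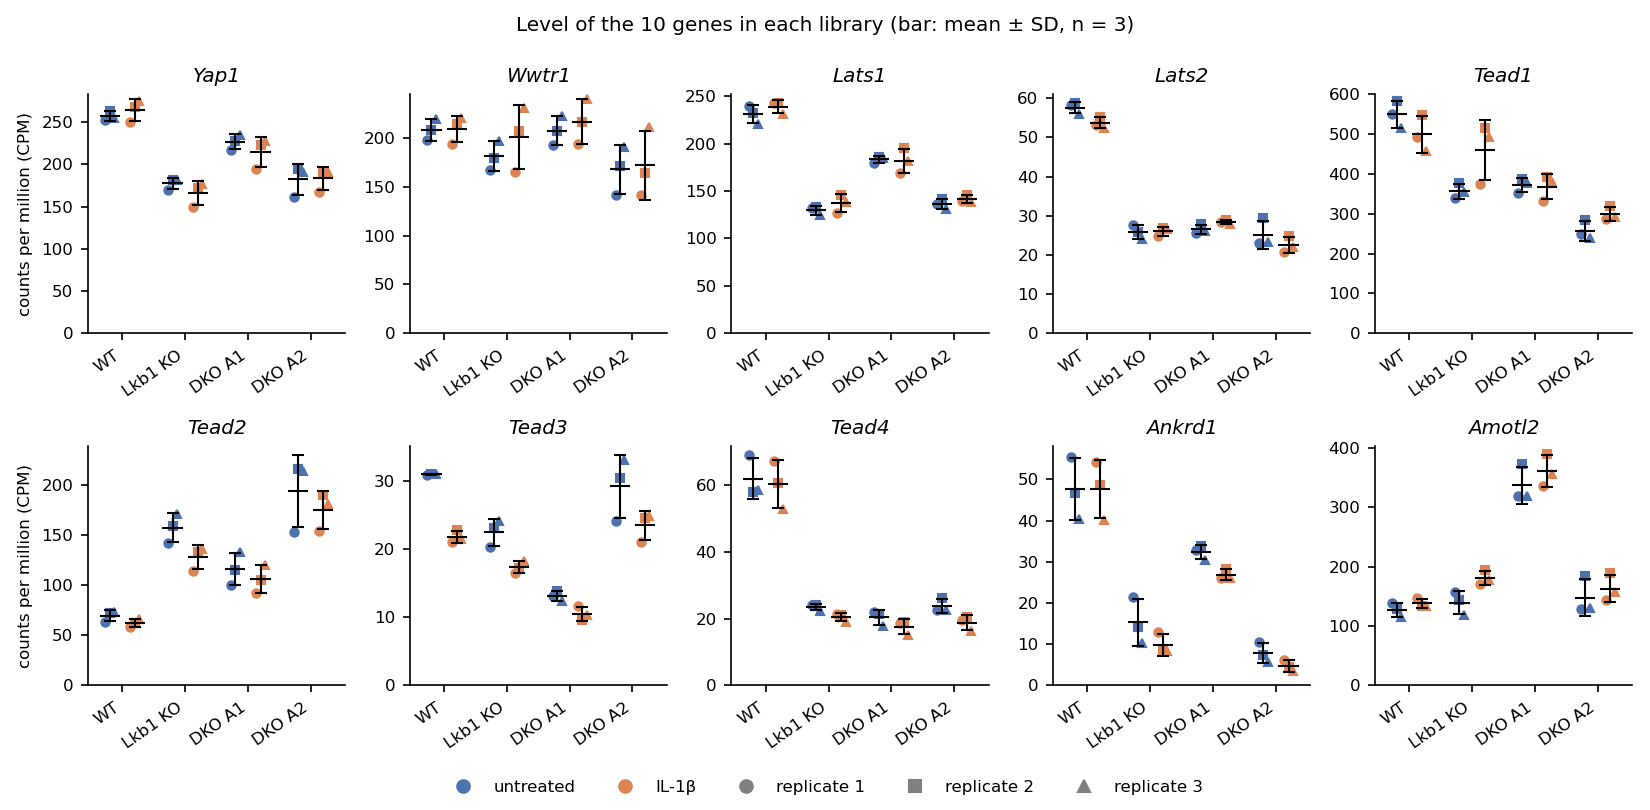
Level of each of the 10 genes in CPM (vertical axes, each panel with its own scale) in the 8 groups of genotype and treatment (horizontal axis). Points are single libraries and bars the mean ± SD of 3 libraries, and DKO stands for *Lkb1*-/-/*Crtc2*-/-. *Lats1*, *Lats2* and *Tead4* were lower in all *Lkb1*-/- libraries than in all wild-type libraries, and *Tead2* was higher.

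Compared per kilobase of exon (the union of all annotated exons of a gene), TAZ and TEAD1 had the highest transcript levels of the 10 genes in untreated wild-type MEFs. *Wwtr1* was at 43.7 ± 2.35 CPM per kb and *Tead1* at 40.5 ± 2.47 (SD, n = 3), with ranges that overlapped, followed without overlap by *Lats1* at 31.7 ± 1.31 and *Yap1* at 27.8 ± 0.633. *Amotl2* (20.3 ± 1.91), *Tead4* (17.2 ± 1.71), *Ankrd1* (16.5 ± 2.60) and *Tead2* (14.5 ± 1.09) formed a middle range in CPM per kb in which each overlapped the next. *Lats2*, at 8.27 ± 0.216, and *Tead3*, at 4.61 ± 0.0175 CPM per kb, were lowest, below *Tead2* and apart from each other. Read pairs on exon bases that *Lats2* shares with a read-through gene count for neither gene, and over its 4016 other exon bases, a length chosen after the data were seen, *Lats2* was at 14.3 ± 0.375 CPM per kb, within the range of *Tead2*, so its place in this order is uncertain. In untreated *Lkb1*-/- MEFs the order changed: *Tead2*, at 32.8 ± 3.02 CPM per kb, overlapped *Wwtr1* at 38.0 ± 3.15 and was above *Tead1* at 26.3 ± 1.37, while *Tead4* and *Ankrd1* were at 6.54 ± 0.276 and 5.30 ± 1.97. With the longest transcript as the length, *Yap1* moved from 27.8 to 48.7 CPM per kb in wild-type MEFs, and in *Lkb1*-/- MEFs *Tead2* was at 46.3 ± 4.26 and *Wwtr1* at 38.7 ± 3.20 CPM per kb, so the order of *Yap1*, *Wwtr1* and *Tead2* depends on the length used.

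Untreated *Lkb1*-/- MEFs had lower transcript levels of both LATS kinases, of YAP, of 3 of the 4 TEAD factors and of *Ankrd1* than wild-type MEFs, and a higher level of *Tead2*. By edgeR's quasi-likelihood test over 17522 genes, with a Benjamini-Hochberg FDR under 0.05 as the threshold, 1 of the 10 genes rose and 7 fell, where 30.1% of all genes tested were called higher and 25.8% lower. The libraries of 9 of the 10 genes did not overlap between the lines, nor did those of 64.8% of all genes tested. The median log2 fold change was −0.58 over the 10 genes and 0.04 over all genes tested.

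Of the coactivators, *Yap1* (chr9:7931999-8004596, minus strand) was at 252, 264 and 255 CPM in the 3 untreated wild-type libraries and 170.0, 182 and 181 CPM in the 3 untreated *Lkb1*-/- libraries. The *Lkb1*-/- libraries were all lower, without overlap (log2 fold change −0.53, SE 0.079, edgeR FDR = 6.4e-06). *Wwtr1* (chr3:57455649-57575910, minus strand) was at 198, 208 and 220.2 CPM in wild-type and 168, 179.9 and 198 CPM in *Lkb1*-/- MEFs. The highest *Lkb1*-/- library lay just under the lowest wild-type library, and *Wwtr1* was not called (log2 fold change −0.20, SE 0.13, edgeR FDR = 0.222), but it was in the fit that had replicate numbers as a block (log2 −0.20, FDR = 0.00738). YAP made up 38.9% ± 1.27 of the summed *Yap1* and *Wwtr1* transcripts per kb in wild-type MEFs and 33.6% ± 1.26 in *Lkb1*-/- MEFs (SD, n = 3). With the longest transcript as the length these shares were 52.3% ± 1.34 and 46.5% ± 1.41, so which coactivator had more transcripts in wild-type MEFs depends on the length used.

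Both kinases fell. *Lats1* (chr10:7681214-7716460, plus strand) was at 240.0, 232 and 221 CPM in wild-type and 132, 133 and 125 CPM in *Lkb1*-/- MEFs. Every *Lkb1*-/- library was far below every wild-type library (log2 fold change −0.83, SE 0.06, edgeR FDR = 1.27e-10). The genes of chromosome 10 had a lower median too, with a log2 fold change of −0.44 over 813 genes and −0.43 over the 40 tested genes within 5 Mb of *Lats1*, and the part of that shift in the change of *Lats1* was not tested. *Lats2* (chr14:57689662-57758388, minus strand) was at 58.2, 58.8 and 55.9 CPM in wild-type and 27.7, 25.9 and 24.05 CPM in *Lkb1*-/- MEFs, again without overlap (log2 fold change −1.15, SE 0.083, edgeR FDR = 1.4e-10), and the median of chromosome 14 was −0.017. Of the 6971 exon bases of *Lats2*, 42.4% are shared with an annotated read-through gene of the same strand, *Gm49361*, which had 0 counts, so read pairs there count for neither gene and the level of *Lats2* is uncertain.

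Among the TEAD factors, *Tead1* (chr7:112679318-112906807, plus strand) was at 552, 582 and 515 CPM in wild-type and 339.6, 376 and 354 CPM in *Lkb1*-/- MEFs, all *Lkb1*-/- libraries being lower (log2 fold change −0.62, SE 0.1, edgeR FDR = 2.23e-05). The median of chromosome 7 was −0.18, and −0.29 over the 63 tested genes within 5 Mb of *Tead1*, and the part of that shift in the change of *Tead1* was not tested. *Tead4* (chr6:128224288-128300823, minus strand) was at 69.0, 58.1 and 58.6 CPM in wild-type and 24.2, 23.9 and 22.4 CPM in *Lkb1*-/- MEFs. It had the largest fall of the 4 factors (log2 fold change −1.40, SE 0.11, edgeR FDR = 8.73e-10), while the median of chromosome 6 was 0.23. *Tead3* (chr17:28331671-28350817, minus strand) was at 30.8, 31.0 and 31.0 CPM in wild-type, the smallest relative spread of any of the 10 genes in any group, and 20.3, 23.04 and 24.1 CPM in *Lkb1*-/- MEFs (log2 fold change −0.46, SE 0.1, edgeR FDR = 0.000526). *Tead2* (chr7:45215753-45233644, plus strand) went the other way, from 63.6, 71.7 and 73.4 CPM in wild-type to 142, 159 and 171 CPM in *Lkb1*-/- MEFs. Its lowest *Lkb1*-/- library was well above its highest wild-type library (log2 fold change 1.18, SE 0.13, edgeR FDR = 1.35e-07). Over the tested genes within 5 Mb the median log2 fold change was −0.079 for *Tead2*, 0.30 for *Tead3*, 0.065 for *Yap1*, 0.12 for *Wwtr1*, −0.031 for *Ankrd1* and −0.15 for *Amotl2*.

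These changes shifted the makeup of the TEAD transcripts. Per kb of exon, *Tead1* made up 52.7% ± 1.73 of the summed TEAD level in untreated wild-type MEFs and 38.1% ± 1.44 in *Lkb1*-/- MEFs (SD, n = 3). *Tead2* went from 18.9% ± 1.78 to 47.5% ± 2.02 and was the highest TEAD transcript in untreated *Lkb1*-/- MEFs, *Tead4* went from 22.4% ± 2.11 to 9.51% ± 0.889, and *Tead3* from 6.00% ± 0.198 to 4.85% ± 0.166. The summed level of the 4 factors was 76.8 ± 2.33 CPM per kb in wild-type and 69.0 ± 3.97 in *Lkb1*-/- MEFs. After IL-1β the order in *Lkb1*-/- MEFs was the other way round, with *Tead1* at 49.1% ± 2.62 and *Tead2* at 38.8% ± 1.22, beside 52.7% ± 1.93 and 18.6% ± 2.20 in wild-type MEFs.

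**Figure D2:**
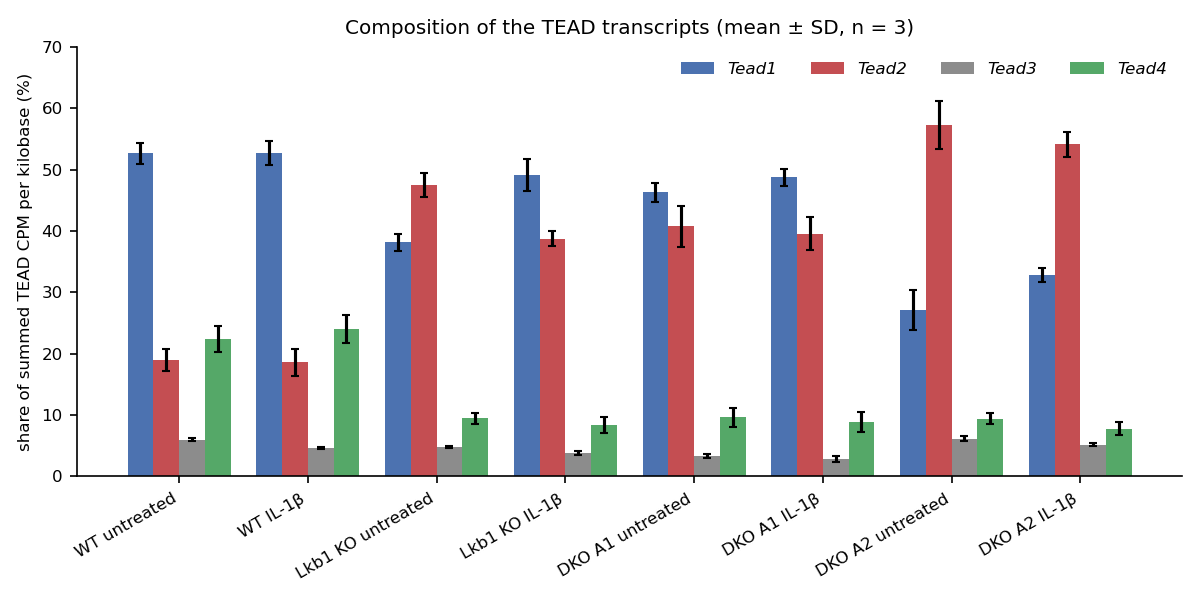
Share of each TEAD gene in the summed level of the 4 TEAD genes (vertical axis, percent of CPM per kb of exon) in the 8 groups (horizontal axis), as mean ± SD of 3 libraries. *Tead2* held 18.9% in untreated wild-type MEFs, 47.5% in untreated *Lkb1*-/- MEFs, 40.8% in untreated clone A1 and 57.3% in untreated clone A2, and 38.8% in *Lkb1*-/- MEFs after IL-1β.

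The target genes differed from each other. *Ankrd1* (chr19:36111961-36120099, minus strand), which encodes an ankyrin repeat protein of the nucleus and the sarcomere, was at 55.4, 46.8 and 40.5 CPM in wild-type and 21.4, 14.3 and 10.2 CPM in *Lkb1*-/- MEFs. The *Lkb1*-/- libraries spread widely, replicate 1 being the highest as in wild-type, and all lay below the wild-type libraries (log2 fold change −1.64, SE 0.25, edgeR FDR = 7.22e-06). Since *Ankrd1* is also a muscle gene, 7 markers of striated muscle were read beside it: their sum lay between 2.08 and 3.34 CPM in untreated wild-type libraries and between 0.719 and 1.11 CPM in untreated *Lkb1*-/- libraries, and *Myod1*, *Myog*, *Ckm* and *Nkx2-5* were at 0 in untreated wild-type MEFs. The lower sum was that of *Tnnt2*, at 2.56 ± 0.596 CPM in the wild-type libraries against 0.530 ± 0.289 CPM in those of *Lkb1*-/- MEFs, whereas *Des* went the other way, from 0.0781 ± 0.0329 to 0.310 ± 0.0730 CPM, and their part in the change of *Ankrd1* was not tested. *Amotl2* (chr9:102716672-102733418, plus strand) was at 139, 129 and 115 CPM in wild-type and 157, 144 and 118 CPM in *Lkb1*-/- MEFs. Its groups overlapped and it was not called (log2 fold change 0.13, SE 0.13, edgeR FDR = 0.409).

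After IL-1β the comparison of the lines gave 2 genes higher and 6 lower in *Lkb1*-/- MEFs, where 30.2% of all genes were called higher and 27.1% lower, with a median of −0.50 over the 10 genes. *Yap1* (log2 −0.67, edgeR FDR = 2.7e-07), *Lats1* (log2 −0.80, edgeR FDR = 2.14e-10), *Lats2* (log2 −1.04, edgeR FDR = 6.77e-10) and *Tead4* (log2 −1.55, edgeR FDR = 1.7e-10) were again lower. *Tead3* (log2 −0.33, edgeR FDR = 0.00817) and *Ankrd1* (log2 −2.27, edgeR FDR = 1.1e-07) were lower too, and *Tead2* was higher (log2 1.04, edgeR FDR = 7.18e-07). *Tead1* was at 494, 549 and 457 CPM in IL-1β-stimulated wild-type and 375, 515 and 494 CPM in IL-1β-stimulated *Lkb1*-/- MEFs, where the groups overlapped and the gene was not called (log2 −0.12, edgeR FDR = 0.351). *Amotl2* was called higher, at 147, 134 and 134 CPM in wild-type and 171, 194 and 178 CPM in *Lkb1*-/- MEFs (log2 0.39, edgeR FDR = 0.0142), a call that was lost without *Lkb1*-/- replicate 2 or wild-type replicate 3, with an FDR of up to 0.0651. *Wwtr1* was not called (log2 −0.059, edgeR FDR = 0.733).

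**Figure D3:**
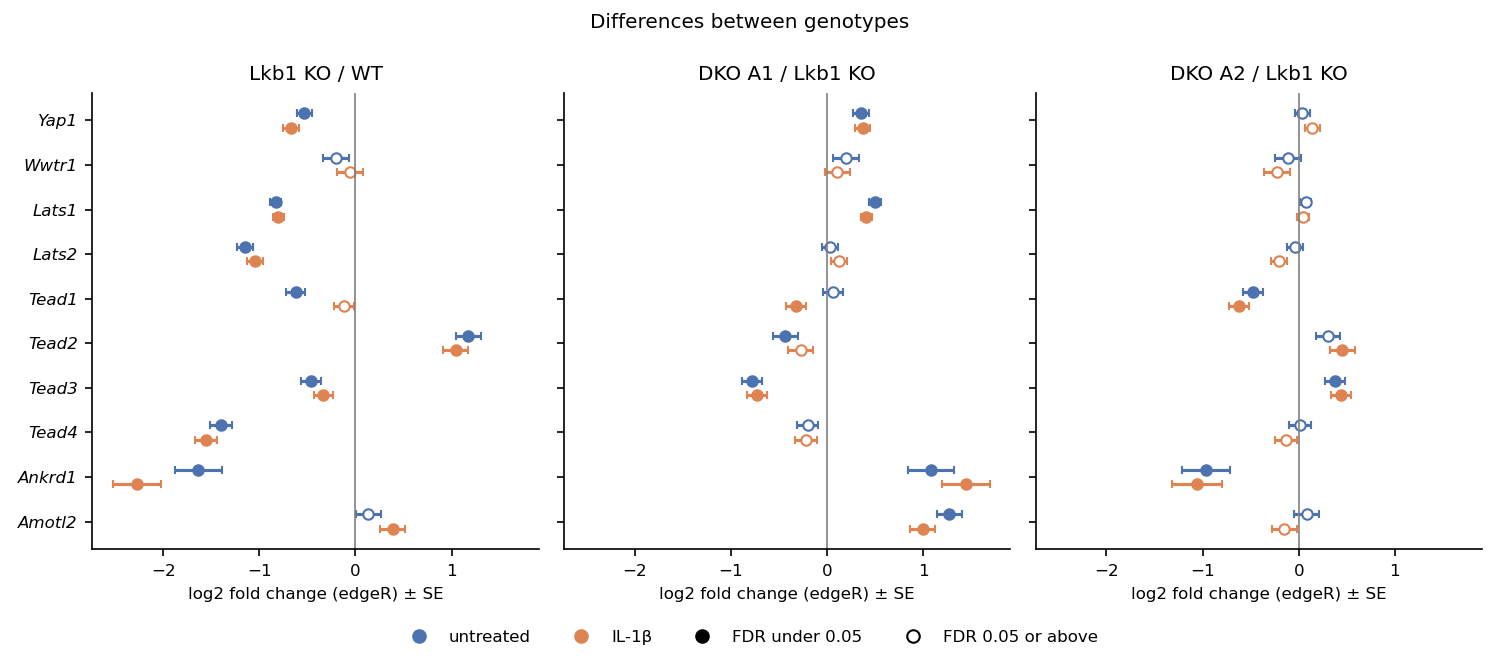
Log2 fold change (horizontal axis) of each of the 10 genes (vertical axis), untreated and after IL-1β, with 1 panel for each comparison of genotypes, bars of 1 standard error from the fit and filled points for an edgeR FDR under 0.05. Untreated, *Ankrd1* stood at −1.64 in *Lkb1*-/- against wild-type MEFs, and at 1.08 in clone A1 and −0.97 in clone A2 against *Lkb1*-/- MEFs.

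Deletion of *Crtc2* in *Lkb1*-/- MEFs was compared next, and the clones gave different patterns. In untreated clone A1, 4 of the 10 genes were higher and 2 lower than in *Lkb1*-/- MEFs, where 18.9% of all genes were called higher and 16.4% lower. In untreated clone A2, 1 was higher and 2 were lower, where 17.1% of all genes were called higher and 15.1% lower. These comparisons share the *Lkb1*-/- libraries with those against wild-type MEFs, so a high or low *Lkb1*-/- library moves both.

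*Ankrd1* moved in opposite directions in the clones. It was at 32.9, 33.8 and 30.5 CPM in untreated clone A1 and 10.5, 7.29 and 5.64 CPM in untreated clone A2, beside 21.4, 14.3 and 10.2 CPM in *Lkb1*-/- MEFs. The clone A1 libraries were all above the *Lkb1*-/- libraries (log2 fold change 1.08, SE 0.24, edgeR FDR = 0.00144), and below all wild-type libraries without passing the threshold against them (log2 −0.55, edgeR FDR = 0.054), which they did with the replicate block (log2 −0.53, FDR = 0.00114). Against wild-type MEFs the gene was also called by DESeq2 (FDR = 0.0406), with no filter on low counts, with unstranded counts and with only the groups compared. In clone A2 the highest library reached the lowest *Lkb1*-/- library, and the gene was called lower (log2 fold change −0.97, SE 0.25, edgeR FDR = 0.00515), but not in a fit without *Lkb1*-/- replicate 1 (log2 −0.61, FDR = 0.0846). Between the clones themselves the log2 fold change of A2 against A1 was −2.05 (SE 0.25, edgeR FDR = 2.87e-06). The median of chromosome 19 was −0.35 in clone A1 and −0.31 in clone A2, and over the 68 tested genes within 5 Mb of *Ankrd1* it was −0.31 and −0.45. The part of that shift in the change of *Ankrd1* in clone A2 was not tested. The striated muscle markers summed to 0.735 to 0.829 CPM in clone A1 and 0.786 to 1.70 CPM in clone A2.

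*Amotl2* set clone A1 apart from the other untreated groups. Untreated clone A1 was at 319, 374 and 319 CPM, clone A2 at 129, 184 and 129.9 CPM and *Lkb1*-/- MEFs at 157, 144 and 118 CPM. All clone A1 libraries were above all other untreated libraries (log2 fold change 1.27, SE 0.13, edgeR FDR = 2.3e-07 against *Lkb1*-/- MEFs), whereas clone A2 overlapped *Lkb1*-/- MEFs. Against wild-type MEFs clone A1 was higher as well (log2 1.41, edgeR FDR = 9.51e-09), and clone A2 was lower than clone A1 (log2 −1.19, edgeR FDR = 6.85e-07). *Amotl2* and *Yap1* both lie on chromosome 9, whose 982 tested genes differed from *Lkb1*-/- MEFs by a median of 0.32 on the log2 scale in clone A1 and 0.025 in clone A2, with 0.37 within 5 Mb of *Amotl2* in clone A1. The change of *Amotl2* was far above these medians, and the part of the chromosome's shift in it was not tested.

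*Yap1* was at 218, 228 and 235 CPM in untreated clone A1 and 162, 194 and 191 CPM in untreated clone A2. It was higher in clone A1 than in *Lkb1*-/- MEFs (log2 fold change 0.35, SE 0.079, edgeR FDR = 0.00138), close in size to the median of its chromosome and to the median of 0.40 over the 27 genes within 5 Mb, and clone A2 overlapped *Lkb1*-/- MEFs. *Lats1* was at 179, 186 and 185 CPM in clone A1 and 136, 142 and 132 CPM in clone A2. It was higher in clone A1 (log2 fold change 0.50, SE 0.059, edgeR FDR = 1.44e-06), where the median of chromosome 10 was 0.39, and not called in clone A2, where that median was 0.27. The part of these chromosome medians in the changes of *Yap1* and *Lats1* was not tested. *Lats2* was at 25.5, 27.8 and 26.2 CPM in clone A1 and 22.9, 29.3 and 23.2 CPM in clone A2, near the *Lkb1*-/- libraries and without a call in either, and it stayed below wild-type in both (log2 −1.12 and −1.20). *Wwtr1* was at 193, 208 and 223 CPM in clone A1 and 142, 171 and 191 CPM in clone A2. It was called against *Lkb1*-/- MEFs in neither clone, and with the replicate block it was higher in clone A1 (log2 0.20, FDR = 0.0132).

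The TEAD factors also differed by clone. *Tead3* was at 13.1, 13.9 and 12.4 CPM in untreated clone A1, below every other untreated library (log2 fold change −0.78, SE 0.1, edgeR FDR = 5.39e-06 against *Lkb1*-/- MEFs), where the median of chromosome 17 was −0.37, and at 24.1, 30.5 and 33.1 CPM in clone A2, higher than in *Lkb1*-/- MEFs (log2 fold change 0.38, SE 0.1, edgeR FDR = 0.00635). *Tead1* was at 352, 387 and 377 CPM in clone A1, overlapping *Lkb1*-/- MEFs, and at 248, 285 and 238 CPM in clone A2, where it was lower (log2 fold change −0.47, SE 0.1, edgeR FDR = 0.0012). *Tead2* was at 100.4, 115 and 133 CPM in clone A1 and 153, 216 and 214 CPM in clone A2. It was lower in clone A1 than in *Lkb1*-/- MEFs (log2 fold change −0.44, SE 0.13, edgeR FDR = 0.0117), which it was not without clone A1 replicate 1 (FDR = 0.0756), and in clone A2 it was not called (log2 0.31, edgeR FDR = 0.0793) but was higher with the replicate block (log2 0.30, FDR = 0.000222). *Tead4* was at 21.9, 21.5 and 17.9 CPM in clone A1 and 22.6, 26.2 and 22.5 CPM in clone A2, all below the wild-type libraries. It was called against *Lkb1*-/- MEFs in neither clone, and with the block it was lower in clone A1 (log2 −0.21, FDR = 0.0197). Of the summed TEAD level per kb, *Tead2* held 40.8% ± 3.33 in clone A1 and 57.3% ± 3.90 in clone A2, and *Tead1* held 46.3% ± 1.51 and 27.1% ± 3.28.

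Against untreated wild-type MEFs, clone A1 had 2 of the 10 genes higher and 5 lower, where 30.3% of all genes were called higher and 25.1% lower, and clone A2 had 1 higher and 6 lower, where 32.7% were called higher and 27.9% lower. *Tead2* was higher in both clones (log2 0.74 and 1.48), and *Lats1*, *Lats2*, *Tead1* and *Tead4* were lower in both, *Tead4* by log2 −1.60 and −1.38. *Yap1* was lower in clone A2 (log2 −0.49, edgeR FDR = 1.39e-05) and did not pass the threshold in clone A1 (log2 −0.18, edgeR FDR = 0.0593), where it was lower with the replicate block (log2 −0.18, FDR = 0.00104). In clone A1 *Yap1* was also called lower by DESeq2 (FDR = 0.0292), with RLE size factors, no filter on low counts, unstranded counts and only the groups compared. *Wwtr1* was lower in clone A2 with the block (log2 −0.32, FDR = 9.2e-05) and was not called in the reported fit without it. It was also called lower by DESeq2 (FDR = 0.0349), with RLE size factors, no filter on low counts, unstranded counts and only the groups compared. Clone A2 compared with clone A1 had 2 genes higher, *Tead2* and *Tead3*, and 5 lower, *Yap1*, *Lats1*, *Tead1*, *Ankrd1* and *Amotl2*, where 15.8% of all genes were called higher and 16.7% lower. The block added *Wwtr1* (log2 −0.32, FDR = 0.000245) and *Tead4* (log2 0.22, FDR = 0.0135) to the genes called between the clones. *Wwtr1* was called there with upper quartile normalization, no filter on low counts and only the groups compared as well.

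After IL-1β the clones were compared in the same way. In clone A1, 4 of the 10 genes were higher than in *Lkb1*-/- MEFs and 2 lower, where 19.4% of all genes were called higher and 17.3% lower. *Ankrd1*, at 26.1, 28.4 and 26.2 CPM in clone A1 and 13.0, 8.27 and 8.35 CPM in *Lkb1*-/- MEFs, was higher (log2 fold change 1.45, SE 0.25, edgeR FDR = 0.000101), as were *Amotl2* (log2 1.00, edgeR FDR = 4.49e-06), *Lats1* (log2 0.41, edgeR FDR = 1.52e-05) and *Yap1* (log2 0.37, edgeR FDR = 0.000842). *Tead3* was lower (log2 −0.73, edgeR FDR = 1.31e-05), and so was *Tead1* (log2 −0.32, edgeR FDR = 0.0164), whose call was lost without clone A1 replicate 1 or *Lkb1*-/- replicate 2 or 3, with an FDR of up to 0.109. With the block, *Tead2* (log2 −0.28, FDR = 0.000452) and *Tead4* (log2 −0.22, FDR = 0.0133) were lower as well. In clone A2, 2 genes were higher, *Tead2* (log2 0.45, edgeR FDR = 0.0103) and *Tead3* (log2 0.44, edgeR FDR = 0.00203), and 2 lower, *Tead1* (log2 −0.62, edgeR FDR = 7.98e-05) and *Ankrd1* (log2 −1.06, edgeR FDR = 0.00344), where 17.1% of all genes were called higher and 15.8% lower. *Ankrd1* was at 6.25, 4.46 and 3.43 CPM in IL-1β-stimulated clone A2, the lowest level of the gene in any group. The call of *Tead2* was lost without *Lkb1*-/- replicate 1 (FDR = 0.0582), and the block added *Yap1* (log2 0.14, FDR = 0.0105), *Wwtr1* (log2 −0.23, FDR = 0.00475) and *Lats2* (log2 −0.21, FDR = 0.0129), so that 7 genes were called in place of 4, where the block called 24.4% of all genes higher and 22.1% lower. In fits without 1 library and without the block, *Yap1* ranged from log2 0.072 to 0.22, *Wwtr1* from −0.40 to −0.079 and *Lats2* from −0.26 to −0.13. *Yap1* and *Lats2* were also called with upper quartile normalization, *Lats2* by DESeq2 and *Wwtr1* with no filter on low counts.

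After 6 hours of IL-1β, edgeR called 1 of the 10 genes in wild-type MEFs, 2 in *Lkb1*-/- MEFs and 0 in each clone, and with the replicate block 1, 5, 1 in clone A1 and 4 in clone A2. *Tead3* fell in wild-type MEFs, from 30.8, 31.0 and 31.0 to 21.1, 22.8 and 21.5 CPM without overlap (log2 fold change −0.50, SE 0.1, edgeR FDR = 0.00622), and it was the 1 gene of the 10 called there, where 1.53% of all genes were called higher and 0.731% lower. With upper quartile normalization, the genes called over the whole table in wild-type MEFs were 307 higher and 228 lower in place of 268 and 128, those in clone A1 278 and 222 in place of 210 and 138, and those in clone A2 573 and 800 in place of 493 and 502. In *Lkb1*-/- MEFs 1 gene rose and 1 fell, where 2.65% of all genes were called higher and 2.09% lower. *Tead1* rose there, from 339.6, 376 and 354 to 375, 515 and 494 CPM (log2 fold change 0.37, SE 0.1, edgeR FDR = 0.0382), with the lowest stimulated library below the highest untreated one, and *Tead3* fell from 20.3, 23.04 and 24.1 to 16.5, 17.2 and 18.3 CPM without overlap (log2 fold change −0.38, SE 0.1, edgeR FDR = 0.0343). Each gene lost its call in *Lkb1*-/- MEFs in 5 of 6 fits without 1 of the libraries compared, with an FDR of up to 0.217 for *Tead1* and 0.147 for *Tead3* in the fit without the block. The call of *Tead1* held without the stimulated replicate 1, and that of *Tead3* without the untreated replicate 1. With the block both were called (*Tead1* log2 0.36, FDR = 0.00053, and *Tead3* log2 −0.37, FDR = 0.00484).

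In clone A1, 0 of the 10 genes were called by edgeR, where 1.2% of all genes were called higher and 0.788% lower. There, 1 gene had an unadjusted p under 0.05, as had 1881 of all 17522 genes tested. DESeq2 called 0 of the 10 genes, and 313 higher and 260 lower over all genes. In clone A2, 0 were called by edgeR, where 2.81% of all genes were called higher and 2.86% lower. Here, 4 genes had an unadjusted p under 0.05, as had 3076 of all 17522 genes tested. DESeq2 called 1 of the 10 genes, and 669 higher and 703 lower over all genes. The replicate block takes out differences between replicate numbers that all 8 groups share, and not those particular to a genotype. With it, 1 gene was called in wild-type MEFs, where 4.7% of all genes were called higher and 4.59% lower, and 5 in *Lkb1*-/- MEFs, where 5.77% were higher and 9.07% lower. In clone A1 the block called 1, where 3.68% of all genes were higher and 5.94% lower, and in clone A2 it called 4, where 7.27% were higher and 10.6% lower. In *Lkb1*-/- MEFs the block added falls of *Tead2* (log2 −0.30, FDR = 0.00089) and *Ankrd1* (log2 −0.62, FDR = 0.00462) and a rise of *Amotl2* (log2 0.37, FDR = 0.0104). In clone A1 it called *Tead3* lower (log2 −0.32, FDR = 0.032). In clone A2 it called *Tead3* (log2 −0.31, FDR = 0.014), *Tead4* (log2 −0.34, FDR = 0.00131) and *Ankrd1* (log2 −0.73, FDR = 0.0027) lower and *Tead1* (log2 0.22, FDR = 0.0263) higher. In fits without 1 library and without the block, *Ankrd1* ranged from log2 −0.88 to −0.30 in *Lkb1*-/- MEFs and from −0.99 to −0.43 in clone A2.

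The pairs of the same replicate number showed the directions of the single genes. *Tead3* was lower after IL-1β in 12 of 12 pairs over the 4 genotypes, and *Amotl2* was higher in 12 of 12. *Tead2*, *Tead4* and *Ankrd1* were lower in 11 of 12 pairs each, whereas *Yap1* was lower in 9, *Lats1* was higher in 9, *Wwtr1* was higher in 8, and *Lats2* was lower in 7. *Tead1* was lower in 3 of 3 pairs of wild-type MEFs and higher in 3 of 3 pairs of both *Lkb1*-/- MEFs and clone A2, and in 2 of 3 of clone A1. *Amotl2* in stimulated wild-type MEFs was at 147, 134 and 134 CPM and in stimulated clone A1 at 336, 389 and 357 CPM, in both within or near the range of the untreated libraries.

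**Figure D4:**
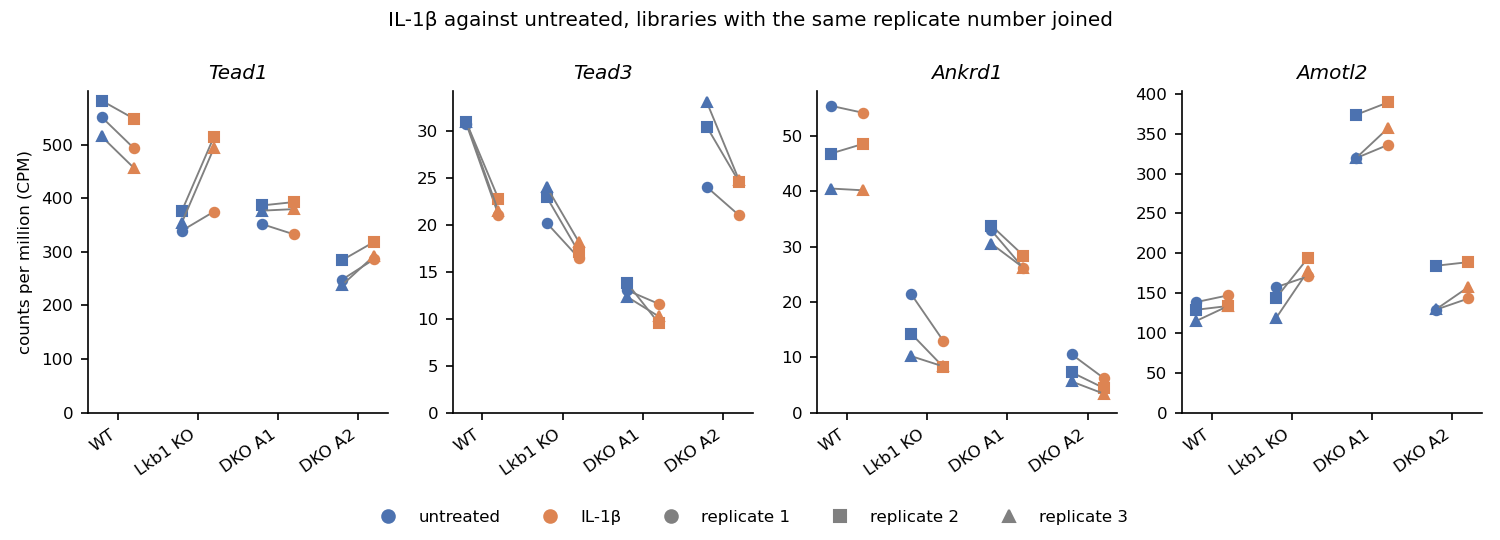
Level in CPM (vertical axes) of *Tead1*, *Tead3*, *Ankrd1* and *Amotl2* in untreated and IL-1β-stimulated libraries of the 4 genotypes (horizontal axes), with a line joining the 2 libraries of the same replicate number. All 12 lines of *Tead3* point down and all 12 of *Amotl2* point up.

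Whether the response to IL-1β itself differed between genotypes was tested as the difference of the fold changes. For *Lkb1*-/- MEFs against wild-type MEFs, edgeR called 0 of the 10 genes, where 0.137% of all genes were called higher and 0.108% lower, 1 had an unadjusted p under 0.05 and DESeq2 called 1. That gene was *Tead1*, whose difference of responses was 0.51 on the log2 scale (SE 0.14, edgeR FDR = 0.248). It was called with the replicate block (log2 0.50, FDR = 0.00503), by DESeq2 (FDR = 0.0338) and without the stimulated *Lkb1*-/- replicate 1 (edgeR FDR = 0.0233). Over all genes the block called 131 higher and 180 lower (0.748% and 1.03%) and DESeq2 67 and 45, in place of 24 and 19 by edgeR without the block. Of the 17522 genes tested, 985 had an unadjusted p under 0.05. For clone A1 against *Lkb1*-/- MEFs, 0 were called by edgeR, where 0% of all genes were called higher and 0.0285% lower, 1 had an unadjusted p under 0.05 and DESeq2 called 0. Over all genes, 433 had an unadjusted p under 0.05 there, and DESeq2 called 2 higher and 9 lower. For clone A2 against *Lkb1*-/- MEFs, 0 were called by edgeR, where 0% of all genes were called higher and 0% lower, 0 had an unadjusted p under 0.05 and DESeq2 called 0 (over all genes, 388 had an unadjusted p under 0.05 and DESeq2 called 4 higher and 6 lower).

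The other genes of the pathway were read as 3 lists. The first held 14 genes of the kinase module and its scaffolds, such as the kinases STK3 and STK4 (MST2 and MST1) that activate LATS. In untreated *Lkb1*-/- MEFs against wild-type MEFs 3 of the 14 rose and 5 fell, where 30.1% of all genes were called higher and 25.8% lower (with the block 3 and 6, beside 34.3% and 30% of all genes), and the median log2 fold change was −0.08 in the list and 0.04 over all genes tested. *Wwc1*, the gene of the scaffold KIBRA, fell from 188 ± 5.05 to 51.6 ± 9.00 CPM (log2 −1.86, edgeR FDR = 4.59e-12), and *Wwc2* (−0.83) and *Frmd6* (−0.78), a FERM-domain protein upstream of the kinases, fell as well. The rises were small: *Map4k4* by log2 0.27, *Sav1*, the adaptor of the MST kinases, by 0.25 and *Taok2* by 0.14. In clone A1 against *Lkb1*-/- MEFs 4 genes of this list were higher and 2 lower, where 18.9% of all genes were called higher and 16.4% lower (with the block 6 and 2, beside 25.6% and 22.5% of all genes). In clone A2 3 were higher and 4 lower, where 17.1% of all genes were called higher and 15.1% lower (with the block 4 and 5, beside 24.5% and 21.4% of all genes). *Frmd6* was at 132 ± 13.7 CPM in clone A1, higher than in *Lkb1*-/- MEFs, and 56.8 ± 4.37 CPM in clone A2, lower than in *Lkb1*-/- MEFs (log2 0.86 and −0.36).

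The second list held 15 genes of mixed roles: upstream cadherins such as FAT1 and FAT4, proteins that hold back YAP such as AMOT and PTPN14, and proteins that hold back the kinases, namely the AJUBA family, which inhibits LATS, and the striatins, which act against the MST kinases. In untreated *Lkb1*-/- MEFs 2 rose and 8 fell, where 30.1% of all genes were called higher and 25.8% lower (with the block 2 and 9, beside 34.3% and 30% of all genes), with a median of −0.37. *Fat1*, a giant cadherin at the top of the pathway, fell from 507 ± 36.0 to 132 ± 11.8 CPM (log2 −1.94, edgeR FDR = 1.26e-12) and was lower again in clone A1, at 88.5 ± 3.68 CPM, and clone A2, at 62.7 ± 5.22 CPM. *Wtip*, a LIM protein of the AJUBA family, fell by 1.11 and *Ptpn14*, a phosphatase that binds YAP, fell by 1.08 on the log2 scale. *Dchs1*, the cadherin that binds FAT4, had 0 to 2 counts in each untreated wild-type library and 386 to 515 in each *Lkb1*-/- library, and with IL-1β, where all wild-type libraries had 0 counts, it was at least 117-fold higher in *Lkb1*-/- MEFs, against a floor of 3 counts per library. *Vgll4*, a competitor of YAP for TEAD, rose by log2 0.68. In clone A1 against *Lkb1*-/- MEFs 8 genes of the list were higher and 3 lower, where 18.9% of all genes were called higher and 16.4% lower (with the block 9 and 5, beside 25.6% and 22.5% of all genes), with a median of 0.28. In clone A2 2 were higher and 3 lower, where 17.1% of all genes were called higher and 15.1% lower (with the block 3 and 4, beside 24.5% and 21.4% of all genes).

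The third list held 19 target genes of YAP and TAZ, without *Ankrd1* and *Amotl2* (*Ptpn14* stands in both this list and the second). In untreated *Lkb1*-/- MEFs 5 rose and 12 fell, where 30.1% of all genes were called higher and 25.8% lower, with a median of −0.67 against 0.04 over all genes tested. *Ccn2*, the gene of connective tissue growth factor, fell from 261 ± 36.0 to 7.25 ± 1.83 CPM (log2 −5.17, edgeR FDR = 3.12e-13), *Ccn1*, the gene of CYR61, from 541 ± 105 to 111 ± 33.7 CPM (−2.29), and *Nuak2*, a kinase of the AMPK family, from 21.9 ± 1.52 to 7.52 ± 0.309 CPM (−1.54). Other targets rose: *Nt5e*, the ectoenzyme CD73, by log2 2.82 and *Foxf2* by 0.86, and *Igfbp3* had 0 counts in every untreated wild-type library and was at least 72.2-fold higher in *Lkb1*-/- MEFs with a floor of 3 counts per library. The list medians are the same with *Dchs1* and *Igfbp3* at these bounds, since both stay at the top of their lists. After IL-1β the lists gave 1 higher and 6 lower, 2 higher and 9 lower, and 3 higher and 12 lower in *Lkb1*-/- MEFs against wild-type, where 30.2% of all genes were called higher and 27.1% lower. With the block these counts were 3 and 7, 3 and 10, and 4 and 13, beside 34.4% and 31.5% of all genes.

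The target genes were then compared in the clones. In clone A1 against untreated *Lkb1*-/- MEFs 11 of the 19 were higher and 2 lower, where 18.9% of all genes were called higher and 16.4% lower (with the replicate block 12 and 5, beside 25.6% and 22.5% of all genes), with a median of 0.50. In clone A2 4 were higher and 5 lower, where 17.1% of all genes were called higher and 15.1% lower (with the block 7 and 8, beside 24.5% and 21.4% of all genes), with a median of 0.04. In clone A1 *Ccn2* was at 34.2 ± 4.83 CPM (log2 2.23 against *Lkb1*-/- MEFs, edgeR FDR = 2.74e-07), *Ccn1* at 267 ± 64.5 CPM (1.27) and *Nuak2* at 24.1 ± 2.17 CPM (1.68). In clone A2 *Ccn2* was at 8.69 ± 2.83 CPM and was not called, *Ccn1* was lower, at 63.8 ± 17.9 CPM (−0.79), and *Nuak2* was higher, at 11.9 ± 2.16 CPM (0.66). Clone A2 compared with clone A1 had 0 targets higher by edgeR and 11 lower (2 and 11 with the block or at an unadjusted p under 0.05, and 12 in either direction by DESeq2), where 15.8% of all genes were called higher and 16.7% lower (23.1% and 23.1% of all genes with the block), and *Ccn2* and *Ccn1* differed by log2 −1.98 and −2.07. Between the clones, 7305 of all 17522 genes had an unadjusted p under 0.05, and DESeq2 called 3083 higher and 3021 lower. *Ccn2* in clone A1 remained below wild-type by log2 2.94.

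After IL-1β edgeR called 1.53% and 0.731% of all genes higher and lower in wild-type MEFs, 2.65% and 2.09% in *Lkb1*-/- MEFs, 1.2% and 0.788% in clone A1 and 2.81% and 2.86% in clone A2, and with the replicate block 4.7% and 4.59%, 5.77% and 9.07%, 3.68% and 5.94% and 7.27% and 10.6%. In the same order, 2001, 2571, 1881 and 3076 of the 17522 genes had an unadjusted p under 0.05. DESeq2 called 329 and 292, 586 and 520, 313 and 260, and 669 and 703 of all genes higher and lower. The counts of the lists stand beside these values. Of the 14 genes of the kinase list, edgeR called 0 in any genotype, and with the block 2 in wild-type MEFs, 2 in *Lkb1*-/- MEFs, 1 in clone A1 and 1 in clone A2. In the same order 2, 3, 1 and 2 of the list had an unadjusted p under 0.05, and DESeq2 called 1, 0, 1 and 0. Of the 15 genes of the second list it called 1, 2, 1 and 3 lower in the same order, which were 4, 7, 5 and 6 with the block, and 0 higher (0 at an unadjusted p under 0.05, where DESeq2 called 2, 2, 1 and 4 in either direction). Of the 19 target genes it called 0 higher in wild-type MEFs (0 at an unadjusted p under 0.05, and 1 gene in either direction by DESeq2) and 1 lower, 2 and 4 in *Lkb1*-/- MEFs, 1 and 2 in clone A1, and 2 and 4 in clone A2, which were 0 and 3, 4 and 6, 1 and 7, and 4 and 7 with the block. *Nuak2* fell in *Lkb1*-/- MEFs (log2 −0.51), clone A1 (−0.72) and clone A2 (−0.68), and *Igfbp3* rose in the same 3 groups (log2 3.14, 3.50 and 3.69). *Nt5e* fell in wild-type MEFs (log2 −1.19), where it was at 2.95 ± 0.650 CPM untreated.

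**Figure D5:**
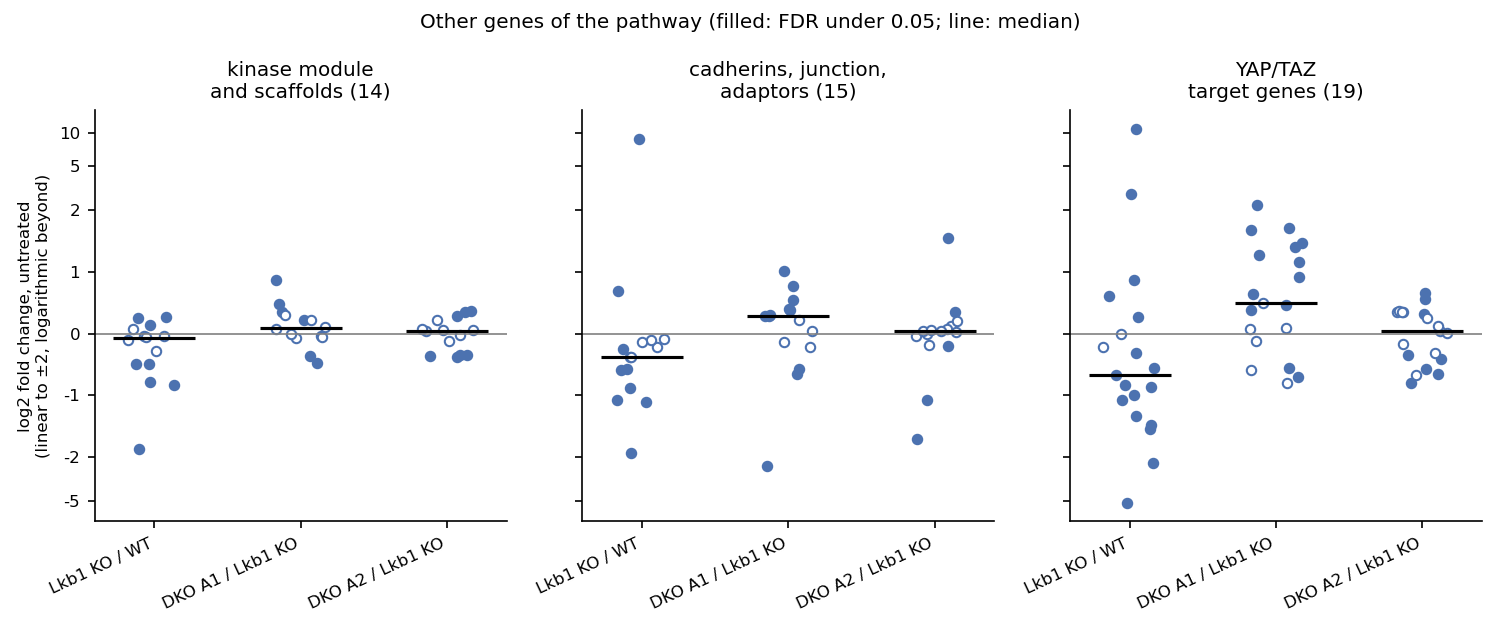
Log2 fold change (vertical axis) of every gene of the 3 other Hippo lists, of 14, 15 and 19 genes, in the comparisons of untreated genotypes (horizontal axis); filled points are genes with an edgeR FDR under 0.05 and the bar is the median of the list. The axis is linear to ±2 and logarithmic beyond, and the points of *Dchs1* and *Igfbp3* in the first comparison rest on libraries at 0 to 2 counts. The median of the target genes was −0.67 in *Lkb1*-/- against wild-type MEFs, 0.50 in clone A1 and 0.04 in clone A2 against *Lkb1*-/- MEFs.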

How the data were processed

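Groups and replicate numbers came from the labels. The authors trimmed the 50-bp paired reads with Trim Galore 0.6.0 and mapped them with STAR 2.7.8a to mm10 and GENCODE genes. STAR's whole-number counts of read pairs per gene, unnormalized and for each strand setting, are what the authors deposited for each library. The paper names a KAPA HyperPrep kit with ribosomal RNA depletion and the labels a SMARTER mRNA-Seq kit, so the kit is not settled. Each table held 55471 genes and 4 lines that name no gene, which took 26.7% to 34.4% of pairs and were left out. The second strand setting was used, as it took 95.5% to 96.0% of stranded assignments. GENCODE M21, on the same build, gave positions and the symbols of 55144 genes (327 had none).

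Counts were fitted with edgeR 4.0.16 (limma 3.58.1, R 4.3.3) over all 24 libraries with 1 coefficient per group, TMM scaling (factors 0.922 to 1.09) and filterByExpr (minimum count 10, minimum total 15), which left 17522 genes. The quasi-likelihood p-values were adjusted by Benjamini-Hochberg over all of these, with calls made at an FDR under 0.05. The fit had a common biological coefficient of variation of 0.129. Libraries of 38842901 to 48594394 counts left at least 140 counts for each of the 10 genes, and 3 counts in a library were the floor for folds against 0. Nothing says that replicates were separate cultures, so p-values measure only the spread between these samples.

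Over 9369 well-expressed genes, the deviations from group means of all 84 pairs of libraries with the same number correlated by 0.238 to 0.819. On average over the libraries of the other groups, all 24 libraries correlated most with those of their own number. The numbers were therefore taken to pair the libraries, and values from a block of replicate numbers stand beside each call of the 10 genes, and each count of genes called in the pathway lists, that they changed.

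The 10 genes, all lists and the tests were chosen with earlier results of these data known. From each pathway list up to 3 genes in each direction were named, those with the largest change among the genes called in untreated *Lkb1*-/- against wild-type MEFs (mean log2 CPM above 0). The alternatives were RLE size factors, upper quartile normalization, no filter on low counts, unstranded counts, the block, DESeq2 1.42.0, a fit of the groups compared alone, omission of single libraries, and for levels per kb the longest transcript.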

Additional observations from a re-analysis of the deposited data

How the results depend on the processing

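The number of the 10 genes called was within 1.5 times the reported count under all 7 alternatives to the fit for 11 of the 16 comparisons, among them every comparison of genotypes except clone A2 against *Lkb1*-/- MEFs after IL-1β, where the replicate block called 7 in place of 4. The counts within IL-1β comparisons moved more. In *Lkb1*-/- MEFs 2 genes were called, against 5 with no filter on low counts, 5 with the replicate block, 0 with unstranded counts, 1 with only the groups compared, and 0 to 1 when 1 library was left out. In clone A1 0 were called, against 1 with the block. In clone A2 0 were called, against 1 with upper quartile normalization, 2 with no filter, 4 with the block, 1 with DESeq2, and 0 to 1 without 1 library. For the difference of responses of *Lkb1*-/- and wild-type MEFs 0 were called. That count was 2 with no filter, 1 with the block, 1 with DESeq2, and 0 to 1 without 1 library. Over the whole table, the fit with no filter tested 36796 genes in place of 17522. Its rises and falls after IL-1β numbered 662 and 766 in *Lkb1*-/- MEFs (464 and 367 with the filter). They numbered 790 and 853 in clone A2 (493 and 502), and for the difference of responses 160 and 187 (24 and 19). In *Lkb1*-/- MEFs unstranded counts gave 428 rises and 322 falls of 19251 genes, and only the groups compared 505 and 380 of 15897. The block changed no call of the 10 genes other than those given in the report. Some calls gained with it were gained in other fits too. *Wwtr1* in untreated *Lkb1*-/- against wild-type MEFs was called with no filter (FDR = 0.0359) and with only the groups compared (FDR = 0.0333). Against *Lkb1*-/- MEFs, *Tead2* in untreated clone A2 and in clone A1 after IL-1β was called with no filter and with upper quartile normalization.

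Of the 160 fold changes of the 10 genes, 86 were recomputed under the alternatives, namely all in *Lkb1*-/- against wild-type MEFs and elsewhere those called, called with the block or at an unadjusted p under 0.05. Of these 3 changed sign, each in a comparison of *Lkb1*-/- with wild-type MEFs in which it was not called. Without 1 library, *Amotl2* untreated ranged from −0.026 (without *Lkb1*-/- replicate 1) to 0.20 on the log2 scale, *Wwtr1* after IL-1β from −0.19 to 0.065 (without *Lkb1*-/- replicate 1), and *Tead1* after IL-1β from −0.21 to 0.015 (without *Lkb1*-/- replicate 1). *Wwtr1* after IL-1β also changed sign with upper quartile normalization (0.038). With only the groups compared, *Ankrd1* in untreated clone A2 (FDR = 0.0551) and *Tead1* in clone A1 after IL-1β (FDR = 0.0592) against *Lkb1*-/- MEFs lost their calls. The cause was not tested. Upper quartile normalization moved the median of all genes in *Lkb1*-/- against wild-type MEFs from 0.04 to 0.12 untreated and from 0.03 to 0.14 after IL-1β. With the length of the longest transcript, 16 of 20 levels per kb moved by more than 1 SD, and with the unshared exon bases of *Lats2*, a length added after the data were seen, its level moved from 8.27 to 14.3 CPM per kb in wild-type and from 3.71 to 6.44 in *Lkb1*-/- MEFs. Depth limits none of the 10 genes, whereas *Dchs1* and *Igfbp3* in wild-type MEFs were near or at 0 counts.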
